A study of Phyllotreta striolata with 15 samples.

Results

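A set of 118 genes, of 11862 in the deposited tables, had high transcript levels in both eggs and pupae of the striped flea beetle, Phyllotreta striolata, and low levels in larvae, female adults and male adults. The beetle is a leaf beetle that feeds on crucifers. RNA was taken from whole bodies, with 3 libraries in each of the 5 groups, and the study compared stages and sexes. The labels give no strain, treatment or age within a stage for any group, no sex for eggs, pupae or larvae, and no number of animals per library. The genes were chosen on the authors' mean TPM of each group (transcripts per 1000000, a level scaled by gene length). The lower of the egg and pupal means had to be at least 5 TPM, the 2 means had to be under 3-fold apart, and the lower had to be at least 3 times the highest mean of larvae, females and males. Of 6852 genes at 5 TPM or more in both eggs and pupae, 4477 were under 3-fold apart, and the 118 were those that also passed the last condition. Since these means chose the genes, their excess in eggs and pupae is described below and supports nothing further.

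Beetles pass through complete metamorphosis. In the egg the embryo lays down the body plan and forms its first organs and cuticle. In the pupa the larval body is remade into the adult body. Neither stage feeds, and in other insects many genes of patterning, growth, nerve wiring and cuticle formation are used in the embryo and used again in the pupa. The files give each gene a protein-style identifier without a name or function, so the members below stand under their identifiers and no role is given to any of them.

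The same thresholds were applied to each of the 10 pairs of groups, with no upper limit on the number of genes. Eggs and pupae, which the larval stage separates in time, shared 118 genes. Eggs and females shared 419, pupae and males 410, females and males 232, and larvae and pupae 38. The other pairs shared few genes, with 18 for pupae and females, 18 for larvae and males, 10 for larvae and females, 4 for eggs and larvae and 3 for eggs and males. These numbers carry no test.

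Library totals ran from 16509113 to 32598781 counts. The median count of a member was 1673 over the 6 egg and pupal libraries and 131 over the other 9. Larva replicate 1 stood apart from the other larvae across genes on a log2 scale. Its Pearson's r was 0.861 and 0.826 with larva replicates 2 and 3, against 0.961 between those. To a lesser degree, male replicate 2 had 0.905 and 0.942 with the other males, against 0.979 between those. Egg replicate 2 had 0.939 and 0.950 with the other eggs, against 0.973 between those. The names of the count columns begin in 3 ways. Eggs have a beginning of their own, pupae have another, and larvae, females and males share the remaining one; no source used here says what these mark. Stage and column name thus cannot be told apart in any comparison of eggs or pupae with the rest, or of pupae with eggs. In whole bodies, fewer cells of a type and less RNA per cell cannot be told apart either. No label ties the 3 samples of a group to separate collections of animals. The tests below therefore weigh differences against a spread among samples that could be technical.

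Library levels were rebuilt from the counts and the authors' group means. Summed over the 118 genes, they reached 7716, 11652 and 7355 TPM in eggs and 7666, 8923 and 10601 TPM in pupae. The sums were 459, 657 and 1129 TPM in larvae, 1212, 904 and 1495 TPM in females and 1196, 1322 and 1187 TPM in males. The lowest sum of an egg or pupal library was thus several times the highest sum of any other library. The genes took 1.75 ± 0.390% of the counts in eggs and 1.75 ± 0.232% in pupae, against 0.170 ± 0.0768% in larvae, 0.215 ± 0.0572% in females and 0.256 ± 0.0171% in males (SD, n = 3 each). Medians over the 118 genes of the authors' means were 46.6 TPM in eggs and 47.2 TPM in pupae, against 4.03 TPM in larvae, 5.10 TPM in females and 5.69 TPM in males.

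**Figure D1:**
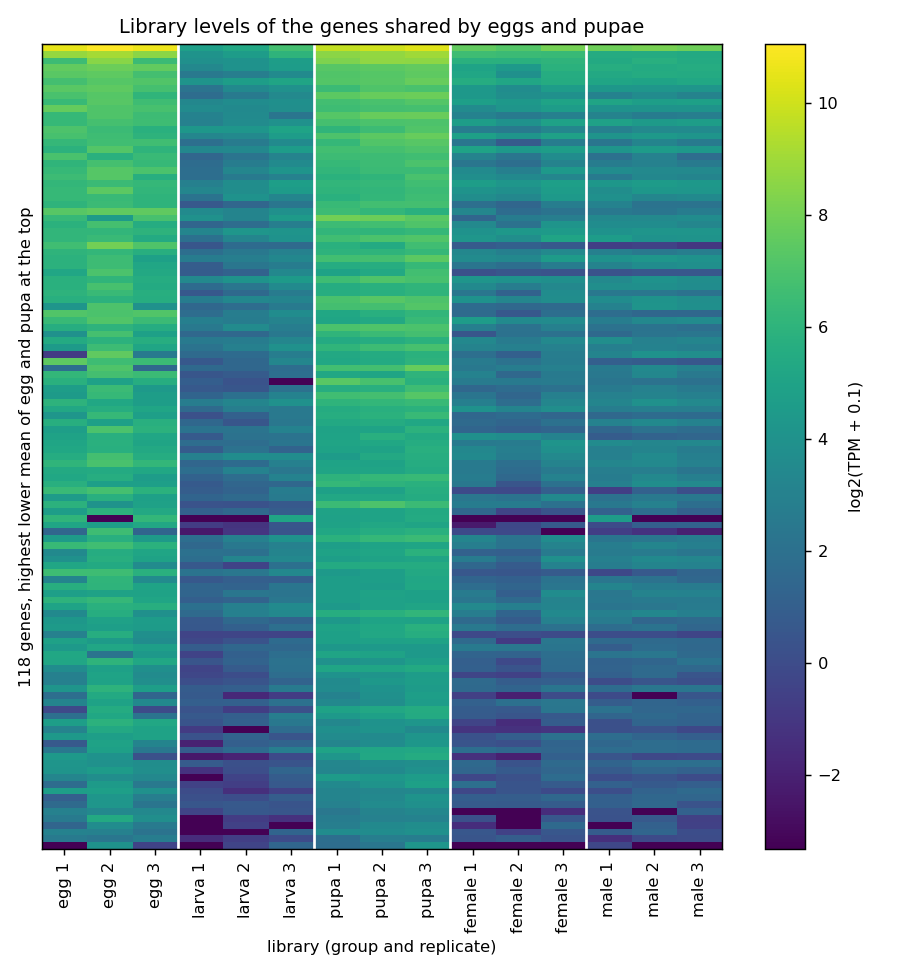
Levels of the 118 genes in each library, as log2 of the rebuilt library TPM plus 0.1, with 1 row per gene and the 3 libraries of each group side by side. Rows are bright in the egg and pupal libraries and darker in larvae, females and males, with single dark cells in egg libraries for a few genes.

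In 103 of the 118 genes, every egg and pupal library lay above every library of larvae, females and males. Over all 11440 genes tested, 4.13% did so, but the choice of the genes favours such a pattern. By edgeR's quasi-likelihood test, 105 of the 118 were called higher in eggs and in pupae than in each of the 3 low groups, with an adjusted p under 0.05 and at least 2-fold in all 6 contrasts. In single contrasts, the numbers called higher were 111 for eggs over larvae, 114 for eggs over females, 110 for eggs over males, 114 for pupae over larvae, 118 for pupae over females and 112 for pupae over males. Over all genes tested the shares were 27.3%, 17.7%, 26.7%, 20.3%, 26.8% and 17.2% in the same order. The share of all genes called in all 6 was 2.61%, and nothing is read from the excess, because the same libraries chose the genes. All 118 passed the filter on low counts. The call in all 6 contrasts was made for 98 to 107 of them when single libraries were left out. The remaining 13 missed 1 to 5 of the contrasts.

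The highest other group by mean TPM was males for 55 genes, females for 37 and larvae for 26. Larvae were the lowest of the 3 for 75 genes, females for 28 and males for 15. The commonest order, found for 44 genes, had males above females and females above larvae. The margin was modest for most of the set: the lower of the egg and pupal means over the highest other mean, with 0.1 TPM added to both, had a median of 4.96 and quartiles of 3.78 and 6.75. In 58 genes this ratio was 5 or more, in 17 it was 10 or more and in 3 it was 20 or more.

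The lower of the egg and pupal means ran from 5.58 to 1052 TPM, with a median of 39.4 TPM, and was 100 TPM or more in 11 genes. CAG9857309.1 was the most abundant member. It was at 1475, 2124 and 1673 TPM in eggs and 837, 1019 and 1299 TPM in pupae, against 27.4, 39.4 and 107 TPM in larvae, 191, 150.3 and 264 TPM in females and 238, 274 and 231 TPM in males. Its 6 egg and pupal libraries stood well clear of the rest, and its adult libraries lay above its larval ones. CAG9862974.1 was second, at 439.96, 551 and 373 TPM in eggs and 373, 424 and 519.7 TPM in pupae, against 16.5, 24.9 and 63.9 TPM in larvae, 95.9, 88.9 and 81.3 TPM in females and 45.9, 45.9 and 42.9 TPM in males. For this gene the females were the highest low group.

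Next was CAG9859129.1, in which the eggs were uneven. It was at 93.9, 368 and 90.5 TPM in eggs and 312, 405 and 391 TPM in pupae, against 14.9, 16.2 and 26.0 TPM in larvae, 54.7, 55.2 and 65.9 TPM in females and 43.0, 53.8 and 43.8 TPM in males. Egg replicates 1 and 3 were above every low library by a small margin, and egg replicate 2 was level with the pupae. CAH1185202.1 was, of the 8 most abundant members, the one with the smallest relative spread in eggs, though its females were uneven, with 205 ± 17.2 TPM in eggs and 176 ± 15.99 TPM in pupae, against 16.9 ± 7.18 TPM in larvae, 37.2 ± 18.8 TPM in females and 47.4 ± 2.51 TPM in males (SD, n = 3 each). The other 4 of the 8 most abundant members, CAG9863807.1, CAG9863558.1, CAG9859873.1 and CAG9859876.1, had egg means of 114 to 152 TPM and pupal means of 117 to 204 TPM. Their highest other mean lay between 16.03 and 43.6 TPM.

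The members with the largest ratio of the lower high mean to the highest low mean were less abundant. In CAG9855668.1 all 6 egg and pupal libraries were high, at 101, 258 and 137 TPM in eggs and 55.1, 43.3 and 98.8 TPM in pupae. It was at 1.31, 3.20 and 3.09 TPM in larvae, 1.62, 2.01 and 1.54 TPM in females and 0.546, 0.607 and 0.402 TPM in males, so no other library came near. CAG9860431.1 was even in both stages, at 35.1, 26.4 and 38.9 TPM in eggs and 31.1, 38.7 and 34.2 TPM in pupae, against 0.492, 0.346 and 1.36 TPM in larvae, 0.108, 0.777 and 1.61 TPM in females and 0.856, 1.94 and 2.20 TPM in males.

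CAH1158455.1 had the largest ratio of all, and its egg mean rested on 1 library. It was at 2.54, 95.4 and 2.38 TPM in eggs and 37.8, 46.8 and 54.7 TPM in pupae. In larvae it was at 0.0886, 0.390 and 1.22 TPM, in females at 0.826, 0.787 and 0 TPM and in males at 0.530, 0.333 and 0.142 TPM. Its egg replicates 1 and 3 were above every low library, but far below every pupal one. CAG9860667.1 showed the same split among eggs, with 3.61, 43.0 and 2.49 TPM, and with 8.32, 14.9 and 26.2 TPM in pupae. The log2 ratio of the lower high mean to the highest low mean, with 0.1 TPM added, was 5.68 for CAH1158455.1 and 1.94 without egg replicate 2. For CAG9860667.1 it was 4.31, and 1.88 without that library. CAG9859150.1, CAG9865104.1 and CAG9857919.1 were likewise highest in egg replicate 2, at 49.5, 78.0 and 112 TPM, against 7.79, 19.0 and 15.4 TPM in egg replicate 1. The last of the 8, CAG9863351.1, was at 25.6, 60.9 and 40.4 TPM in eggs and 30.6, 32.2 and 43.0 TPM in pupae, and no low library passed 3.595 TPM.

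**Figure D2:**
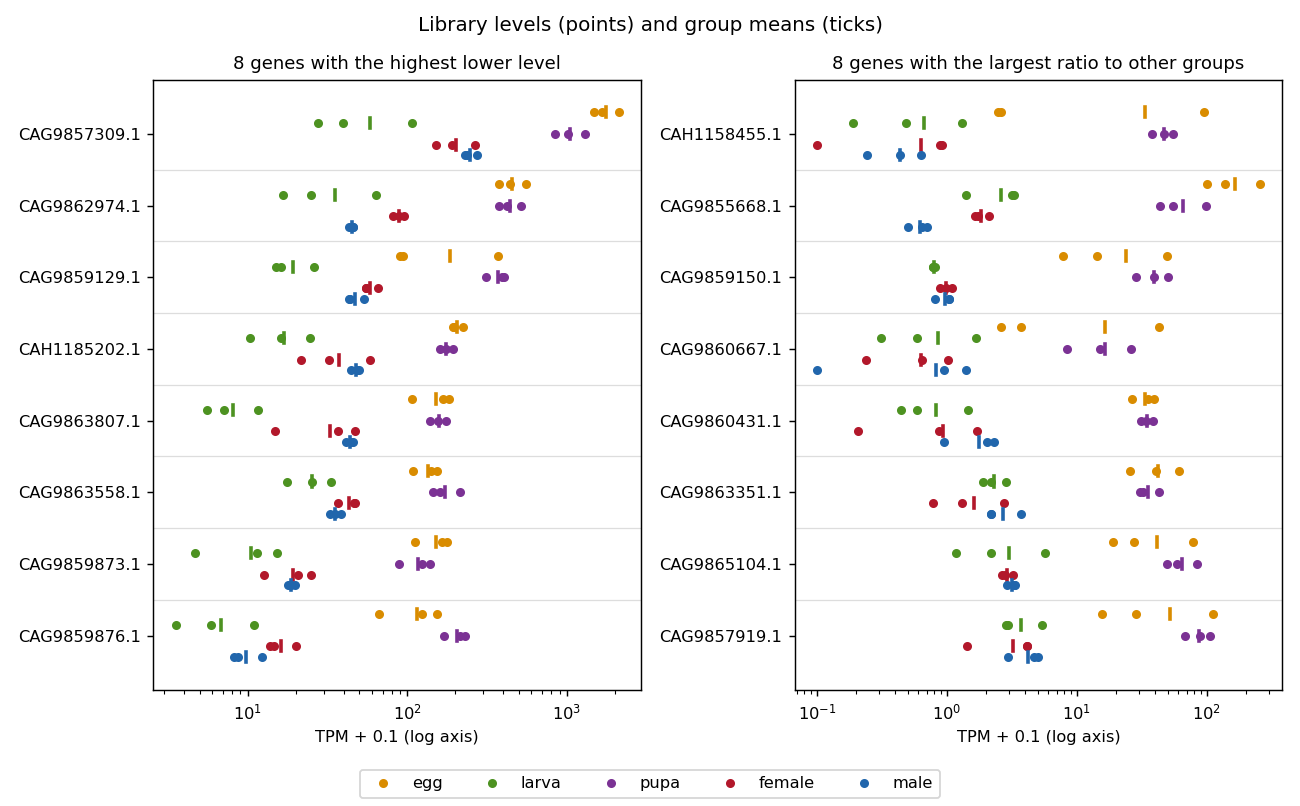
Rebuilt library TPM plus 0.1 (log axis) of the 8 members with the highest lower mean of eggs and pupae (left) and the 8 with the largest ratio to the other groups (right); points are libraries and ticks are group means. In CAG9859129.1, CAH1158455.1 and CAG9860667.1 the egg points split into 1 high and 2 low libraries, whereas in CAG9860431.1 and CAH1185202.1 they lie together.

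The unevenness of eggs ran through the set. Egg replicate 2 was the highest egg library in 94 of the 118 genes, or 79.7%, against 52.8% of all genes at 5 TPM or more in eggs. Its level over the mean of egg replicates 1 and 3 had a median of 1.56-fold over the members and 1.15-fold over all genes at that level. It was 2-fold or more in 44 members, or 37.3%, against 12.7% of all genes at that level. A mean that 1 high library lifts can carry a gene past the thresholds, so the set may hold uneven genes by its choice. Without egg replicate 2, 87 of the 118 met the thresholds again and 31 did not. Of the 118 genes, 19 then had eggs and pupae 3-fold or more apart, 23 had a ratio to the low groups under 3, and 11 had a lower mean under 5 TPM, with some genes in more than 1 of these.

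The extreme cases were far lower in the other eggs than in egg replicate 2. CAG9854622.1 was at 0.487, 186 and 5.92 TPM in eggs and 41.1, 46.5 and 58.9 TPM in pupae, while its male libraries reached 8.82, 16.1 and 13.5 TPM. Egg replicates 1 and 3 thus lay below every male library. CAG9862228.1 was at 0.819, 46.3 and 0.881 TPM in eggs, against 30.5 to 46.5 TPM in pupae. CAG9856185.1 was at 3.61, 135 and 2.65 TPM in eggs, against 103 to 207 TPM in pupae. CAG9864950.1 was at 0, 16.2 and 0.632 TPM in eggs, against 3.39, 4.98 and 18.8 TPM in pupae. These 4 genes had the largest ratios of egg replicate 2 to the other eggs, and were picked after their values were seen. The opposite case was CAG9855558.1, which had no count in egg replicate 2 and 69.0 and 71.8 TPM in egg replicates 1 and 3.

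Read from single libraries against the highest low mean of the same gene, egg replicate 2 was at least 3 times that mean in 113 genes, egg replicate 1 in 93 and egg replicate 3 in 91. The pupal libraries were more alike, with 106, 115 and 118 genes for pupa replicates 1, 2 and 3. Below the highest low mean lay 6 genes in egg replicate 1, 1 in egg replicate 2, 4 in egg replicate 3 and 0 in any pupal library. When every library was left out in turn, 71 of the 118 genes, or 60.2%, met the thresholds each time. Of those 71, 69 were called in all 6 contrasts with all libraries.

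**Figure D3:**
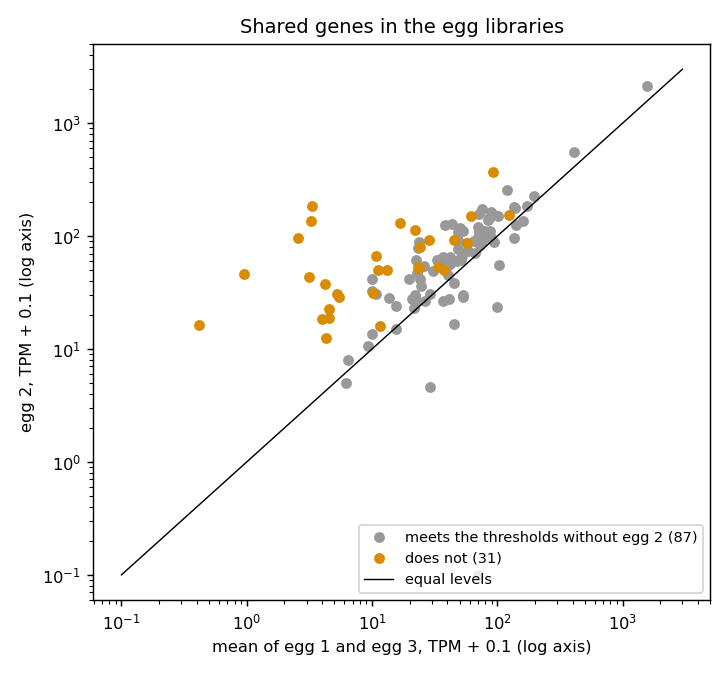
Each of the 118 genes by its mean TPM in egg replicates 1 and 3 (horizontal) and its TPM in egg replicate 2 (vertical), both with 0.1 added and on log axes; the line marks equal levels. Most points lie above the line, and the 15 genes with the largest ratios are all among the 31 that no longer met the thresholds without egg replicate 2.

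Other groups too had 1 library in which most members were highest in TPM. These ranks could differ after TMM scaling. In pupae this was replicate 3, highest in 98 genes or 83.1%, against 55.0% of all genes at 5 TPM or more in pupae. In larvae it was replicate 3, highest in 93 genes or 78.8%, against 53.7% of all genes with a count in larvae. Larva replicate 1 was the lowest larval library in 91 genes, or 77.1%, against 47.1% of all genes. In females replicate 3 was highest in 79 genes, or 66.9%, against 36.7%, and replicate 2 was lowest in 89 genes, or 75.4%, against 38.2%. In males replicate 2 was highest in 70 genes, or 59.3%, against 43.4%. In eggs and pupae the relative spread was wider than over all genes at 5 TPM or more in the group. The median coefficient of variation was 0.384 over members and 0.231 over those genes in eggs, and 0.216 and 0.161 in pupae. In larvae the medians were 0.525 and 0.296, in females 0.377 and 0.189, and in males 0.191 and 0.171. In these 3 groups many members lay under the 5 TPM that the other genes had to reach, so genes of unlike level are compared there.

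Across the 118 genes, the log2 ratio of egg replicate 2 to egg replicates 1 and 3 and that of pupa replicate 3 to pupa replicate 1 had a Spearman's rho of 0.443. Over the 6852 genes at 5 TPM or more in both stages it was 0.034. The ratio of larva replicate 3 to larva replicate 1 had a rho of 0.0946 with that of eggs and 0.0772 with that of pupae over the members, against 0.252 and 0.206 over the 6852. That of female replicate 3 to female replicate 2 had a rho of -0.0623 with eggs and -0.0831 with pupae over the members, against 0.308 and -0.172 over the 6852. Genes within a library share its depth and scaling and are not independent, so these values describe these libraries only. The pairs of libraries were picked after their levels were seen. The members were also chosen on means of these same egg and pupal libraries, so they are a selected part of the 6852.

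**Figure D4:**
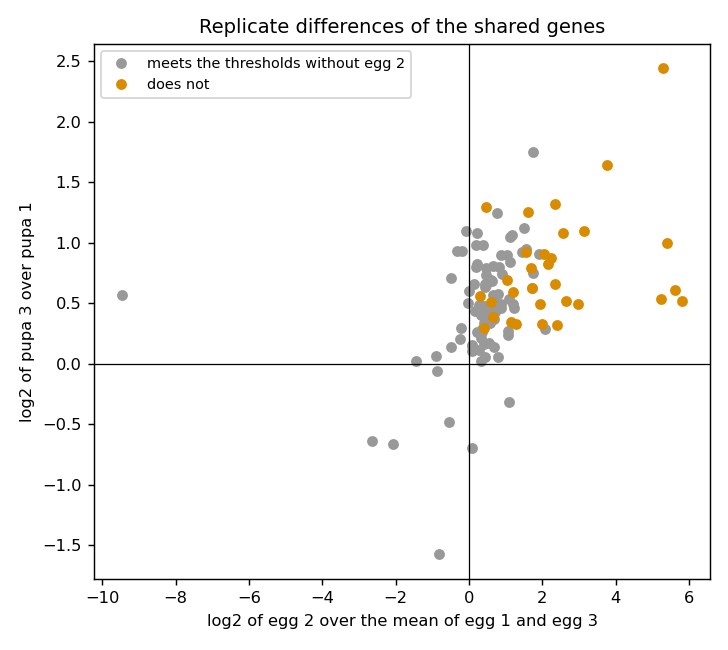
Each of the 118 genes by the log2 ratio of egg replicate 2 to the mean of egg replicates 1 and 3 and by the log2 ratio of pupa replicate 3 to pupa replicate 1, from TPM plus 0.1. The egg ratio is above 0 in 102 of the 118 genes and the pupal ratio in 111. Over all genes at 5 TPM or more in the stage, the shares are 66.3% and 74%. Both ratios are above 0 in 100 of the 118 genes, a number that the single counts largely fix. The gene at the far left is CAG9855558.1.

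Females were compared with males, a contrast that the choice of genes did not use beyond limiting both sexes to low levels. From here on, levels are CPM (counts per 1000000 after TMM scaling of the libraries), and log2 changes are those of edgeR on that scale. Of the 118 genes, 2 were higher in females and 15 lower (adjusted p under 0.05 and at least 2-fold), or 1.69% and 12.7%. Over all 11440 genes tested, 11.7% were higher and 15.9% lower, so the share called lower was near that of genes in general and the share called higher was under it. The median log2 change was -0.67 over the members and -0.23 over all genes. Below the median of all genes lay 90 of the 118, a number that scaling of the libraries hardly touches, since it moves members and all genes together. With library size alone the median was -0.35 over members and 0.09 over all genes. In that fit 3 members were called higher and 7 lower, against 18.5% and 12.1% of all genes.

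The number of members called lower in females depended on single libraries. In library CPM, 55 members had no overlap with females lower and 5 with females higher, or 46.6% and 4.24%, against 34.2% and 26.3% of all genes tested. The number called lower was 6 without male replicate 2, without female replicate 1 or without female replicate 2, and 30 without female replicate 3. Over all genes, the shares called lower in these fits were 10.6%, 9.57%, 8.04% and 15.3% in the same order. The closeness of members to genes in general, given above for all libraries, thus did not hold in each of these fits. Without female replicates 2 and 3 in turn, the median change over members was -0.34 and -0.99, against -0.07 and -0.24 over all genes, and 83 and 94 members lay below the median of all genes.

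CAH1187087.1 had the largest fall among called members with no overlap between the sexes and at least 1 CPM in males. It was at 3.97, 3.68 and 3.87 CPM in females, against 15.3, 30.7 and 25.9 CPM in males, with no overlap and a log2 change of -2.64 ± 0.61 (SE; adjusted p = 0.00706, edgeR). CAG9862628.1 was at 9.25, 2.35 and 7.16 CPM in females, against 19.8, 33.5 and 28.2 CPM in males (log2 change -2.12 ± 0.48, adjusted p = 0.00603, edgeR). CAG9859059.1 was at 0.770, 0.662 and 1.03 CPM in females, against 3.12, 4.13 and 3.16 CPM in males (log2 change -2.08 ± 0.45, adjusted p = 0.00492, edgeR). The sexes did not overlap in any of these 3 genes, although the last had only a few CPM in either sex. Males still held each far below its pupal mean of 229 ± 29.6 CPM, 174 ± 45.3 CPM and 16.1 ± 2.02 CPM (SD, n = 3 each).

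The 2 members that rose were CAH1158800.1 and CAG9855668.1. CAH1158800.1 was at 14.9, 13.6 and 8.35 CPM in females, against 2.60, 3.32 and 3.87 CPM in males, with a log2 change of 1.91 ± 0.34 (SE; adjusted p = 0.0016, edgeR). It reached 51.6 ± 6.86 CPM in eggs and 66.2 ± 15.3 CPM in pupae (SD, n = 3 each). CAG9855668.1, among the most restricted members above, was at 2.39, 3.13 and 2.26 CPM in females, against 1.21, 1.28 and 0.875 CPM in males (log2 change 1.21 ± 0.37, adjusted p = 0.0234, edgeR). Both sexes were close to the bottom of its range, and the call was lost without male replicate 3 and without female replicate 2.

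Adults, as the mean of females and males, were compared with larvae in the same fit. Again both sides were kept low by the choice of genes, but not set against each other. Between adult and larval libraries, 3 members had no overlap with adults higher and 12 with adults lower, or 2.54% and 10.2%. Over all genes tested the shares were 11.4% and 14.2%. Of the 118 genes, 3 were higher in adults and 17 lower, or 2.54% and 14.4%, against 11.3% and 12.7% of all genes tested. As between the sexes, under TMM with all libraries the share called lower was near the background and the share called higher under it. The median log2 change was -0.15 over members and -0.000888 over all genes. With library size alone the median was 0.37 over members and 0.53 over all genes. In that fit 10 members were called higher and 9 lower, against 24.4% and 7.14% of all genes. Without larva replicate 3 the median was 0.14 over members and 0.06 over all genes. The sign of the members' median thus turned with this scaling and without that library. With library size alone, members and all genes moved together. Below the median of all genes lay 72 members under TMM with all libraries and 78 with library size alone. Without larva replicate 3 the number was 58, and without larva replicate 1 it was 95. Without larva replicate 1 the median was -0.31 over members and 0.20 over all genes, and 1 member was called higher and 22 lower. Of those 22, 16 were among the 17. Over all genes, 17.5% were called higher and 11.6% lower in that fit.

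CAG9861491.1 had the largest fall among called members. It was at 0.963, 0.993 and 1.15 CPM in females and 0.809, 1.52 and 2.54 CPM in males, against 7.51, 8.06 and 12.8 CPM in larvae (log2 change -2.86 ± 0.31, adjusted p = 4.31e-05, edgeR). CAG9864509.1 was at 2.35, 3.16 and 2.68 CPM in females and 3.93, 4.55 and 4.66 CPM in males, against 9.69, 10.99 and 40.0 CPM in larvae (log2 change -2.55 ± 0.48, adjusted p = 0.00163, edgeR). Larva replicate 3 was by far the highest larva for this gene, yet all larvae lay above all adults. CAG9862750.1 was at 0.925, 0.919 and 2.14 CPM in females and 0.867, 3.27 and 1.62 CPM in males, against 4.89, 5.40 and 11.9 CPM in larvae (log2 change -2.21 ± 0.41, adjusted p = 0.00157, edgeR). CAG9855668.1 was lower in adults too, with 1.86 CPM over the adults and 7.71 CPM over the larvae (log2 change -2.18 ± 0.29, adjusted p = 0.000194, edgeR).

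Of the 3 members that rose in adults, only CAG9855491.1 had no overlap between adult and larval libraries in CPM. It was at 3.66, 3.82 and 2.26 CPM in females and 4.57, 6.45 and 2.92 CPM in males, against 1.66, 1.42 and 1.47 CPM in larvae, with a log2 change of 1.36 ± 0.44 (SE; adjusted p = 0.0297, edgeR). This call was lost without any 1 of the 3 larvae, without male replicate 2 and without female replicate 1 or 2. The others were the abundant members CAG9857309.1 and CAG9863807.1, whose adult and larval libraries overlapped in CPM but not in TPM. CAG9857309.1 averaged 286 CPM in adults and 114 CPM in larvae (log2 change 1.26 ± 0.30, adjusted p = 0.00575, edgeR). CAG9863807.1 averaged 99.1 CPM in adults and 33.2 CPM in larvae (log2 change 1.499 ± 0.29, adjusted p = 0.00196, edgeR).

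Pupae were set against eggs to see how equal the shared levels were. The choice of genes used this contrast, since it kept the 2 means under 3-fold apart, so the counts are a description. By the authors' means 67 genes were higher in pupae and 51 higher in eggs, the median fold between the stages was 1.53, and 57 genes were under 1.5-fold apart. By edgeR 20 of the 118 were higher in pupae and 6 lower, or 16.9% and 5.08%, against 34.7% and 25.1% of all genes tested. The balance of directions depended on scaling. With library size alone 5 were called higher and 14 lower, against 29.9% and 31.2% of all genes. The median log2 change of members went with that of all genes. The medians were 0.35 and 0.30 under TMM, and -0.03 and -0.04 with library size alone.

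In library CPM, 44 members had no overlap with pupae higher and 15 with pupae lower, or 37.3% and 12.7%. Over all genes tested the shares were 44.3% and 34.4%. CAG9857920.1 had the largest change among those called higher. It was at 318, 315 and 413 CPM in pupae, against 60.8, 164 and 69.7 CPM in eggs (log2 change 1.83 ± 0.45, adjusted p = 0.00349, edgeR). It was also among the members lower in females than in males. CAG9863615.1 was at 116, 118 and 122 CPM in pupae, against 16.5, 67.8 and 16.8 CPM in eggs (log2 change 1.81 ± 0.51, adjusted p = 0.00724, edgeR). CAG9855491.1 was at 82.8, 111 and 70.4 CPM in pupae, against 46.3, 9.96 and 24.4 CPM in eggs (log2 change 1.71 ± 0.47, adjusted p = 0.00638, edgeR). Egg replicate 2 was the highest egg for the first 2 of these and the lowest for the last. Without egg replicate 2, 29 members were called higher in pupae and 5 lower, against 33.1% and 28.4% of all genes.

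In the other direction, CAG9861491.1 was at 24.2, 28.0 and 40.1 CPM in pupae, against 93.3, 74.2 and 56.2 CPM in eggs (log2 change -1.28 ± 0.37, adjusted p = 0.00865, edgeR). CAH1184063.1 was at 220.5, 294 and 354 CPM in pupae, against 703, 483 and 733 CPM in eggs (log2 change -1.14 ± 0.36, adjusted p = 0.0143, edgeR). CAG9855095.1 was at 51.6, 53.6 and 70.9 CPM in pupae, against 207, 84.7 and 103 CPM in eggs (log2 change -1.16 ± 0.49, adjusted p = 0.0489, edgeR). The last lost its call under most alternatives, and its change without egg replicate 1 was -0.68. All 6 genes named here had no overlap between pupal and egg libraries. CAG9861491.1 and CAH1184063.1 were also among the 17 members lower in adults than in larvae.

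**Figure D5:**
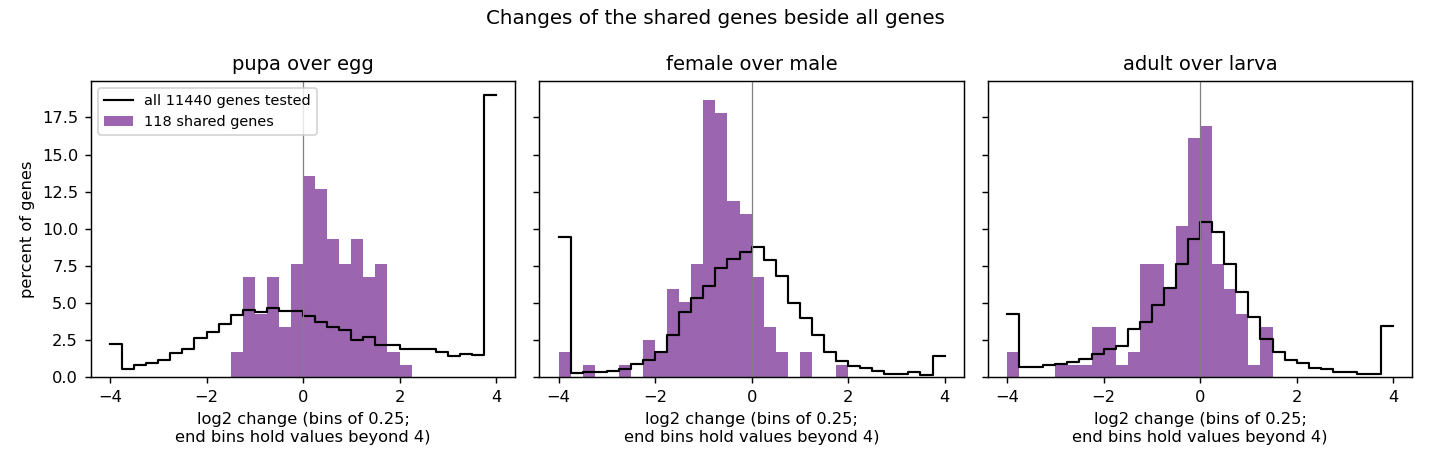
Distribution of log2 changes of the 118 genes (bars) and of all 11440 genes tested (line), as a percentage of each, for pupae over eggs, females over males and adults over larvae; the end bins hold all values beyond 4. The members lie within about 2 of 0 for pupae over eggs, where the choice of genes limits them, and are shifted below all genes for females over males.

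Relative gene length, a property that the thresholds did not use directly, was read from the ratio of counts to TPM and set to 1 for the median gene. The members had a median of 1.26, with quartiles of 0.698 and 2.53, and all 11389 genes with at least 100 counts had quartiles of 0.627 and 1.63. Longer than the median gene were 72 of the 118. The longest was CAH1187899.1, at 10.7 times the median gene, and the shortest CAG9864373.1, at 0.187. No test was made of this difference.

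At the edge of the set, CAG9855558.1 and CAG9865049.1 lay just inside, with ratios of the lower high mean to the highest low mean of 3.01 and 3.02. CAG9862436.1 and CAG9864770.1 lay just outside, at 2.98 and 2.89, with authors' means of 29.6 and 54.0 TPM in eggs and 25.6 and 81.1 TPM in pupae. CAG9855558.1 was the least regular member: it was at 29.4, 32.0 and 43.4 TPM in pupae, had no count in egg replicate 2, in any female or in larva replicates 1 and 2, and was at 34.7 TPM in larva replicate 3 and 24.9 TPM in male replicate 1. Against a floor of 3 counts over the female libraries, its mean CPM was at least 370.2-fold higher in eggs and at least 292.6-fold in pupae. These bounds cover counting error only, and the egg mean rested on egg replicates 1 and 3. By edgeR this gene was called higher in pupae than in females, but not in eggs than in females. Neither eggs nor pupae were called higher than larvae or males for it. CAG9864950.1 also had no count in females. None of the 118 genes is on the authors' deposited lists of stage-specific or sex-specific genes, of which there are 5. The choice of genes high in both eggs and pupae works against a place on such a list, so little is read from this.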

How the data were processed

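Total RNA of whole bodies was extracted with TRIzol and made into libraries with an Illumina TruSeq kit, per the labels' protocols. The authors deposited raw read counts per gene for 15 libraries, and mean TPM per group. Per the submitters' processing notes, the tools were featureCounts, fastp and HISAT2, with no version, setting, strand or genome build stated. The third table lists identifiers only.

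The members, the named genes and the lists were chosen with earlier results of these data known. Named genes are the 8 members with the highest lower mean, the 8 with the largest ratio, up to 3 called members per direction and comparison with no overlap and at least 1 CPM in the higher side, and 2 genes on each side of the threshold; others were picked after their values were seen.

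Library TPM were rebuilt by fitting 1 relative length per gene to the deposited means; 99.1% of 50520 group means over 1 TPM came within 5%. Counts were filtered with filterByExpr (11440 genes kept, 422 dropped), TMM-scaled and tested with edgeR 4.0.16 in R 4.3.3 (quasi-likelihood, robust, 5 groups in 1 model, Benjamini-Hochberg over all genes tested). DESeq2 1.42.0, other scalings, no filter, a replicate block and leaving out each library were tried. The pipeline was tested on simulated data. No 2 libraries of the same group agreed within sampling noise (chi-square per degree of freedom at least 89.2), so none was counted as a copy of another in its group.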

Additional observations from a re-analysis of the deposited data

How the results depend on the processing

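Of 175 alternative values for the counts of members and of called members, 147 stayed within 1.5 times the main value. The set numbered 59 genes at a ratio of at least 5, 205 at a ratio of at least 2, and 90 to 126 when single libraries were left out. Members called higher and lower in pupae than eggs (20 and 6) numbered 5 and 14 with library size alone, 32 and 2 by the DESeq2 Wald test and 11 and 11 with only those groups in the fit; the number lower was 2 with DESeq2 size factors. Without single libraries they ranged from 11 to 29 and from 3 to 10. Members called lower in females than males (15) numbered 7 with library size alone, 29 by the DESeq2 Wald test and 24 with no minimum fold, and 6 to 30 without single libraries; those higher (2) ranged from 1 to 3. Members called higher and lower in adults than larvae (3 and 17) numbered 10 and 9 with library size alone; the number lower was 27 by the DESeq2 Wald test. Without single libraries they ranged from 1 to 4 and from 12 to 25. The DESeq2 Wald test called 37.6% of all genes higher and 22.8% lower in pupae than eggs. It called 20.7% lower in females than males and 17.4% lower in adults than larvae. The causes were not tested. Alternatives were run for the 15 called changes of genes named by size of change; none reversed, and 24 values lost their call. Other printed log2 changes had no alternative run. Genes with few counts in larvae and adults limit these comparisons.

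Replicate numbers are shared between groups, but same-numbered libraries of pupae and eggs had correlated deviations of only 0.0308 to 0.0922, and those of females and males -0.254 to -0.0289, so the numbers were not taken to pair samples in these comparisons; those of larvae and pupae reached 0.264 to 0.526. With the replicate block, 103 members were higher in eggs and pupae than in each low group, 22 members were higher and 7 lower in pupae than eggs, 2 higher and 18 lower in females than males, and 3 higher and 15 lower in adults than larvae.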

Other observations

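Some members carry consecutive identifier numbers. There were 6 such pairs with 11 genes in them, and whether their genes lie side by side in the genome was not examined. CAG9863247.1, CAG9863248.1 and CAG9863249.1 form a run, with egg means of 22.0, 6.85 and 58.2 TPM and pupal means of 30.2, 13.4 and 28.0 TPM. CAG9857919.1 and CAG9857920.1, both named in the report, had egg means of 52.3 and 42.8 TPM and pupal means of 87.7 and 122 TPM, against at most 3.97 and 7.93 TPM in any other group.

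Leaving out larva replicate 1, which resembles the other larvae least, removed 7 members and added 1 gene. This gene, CAG9864402.1, had means of 127 TPM in eggs and 142 TPM in pupae, against 84.8, 52.4 and 24.996 TPM in larvae.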
